A study of Sus scrofa with 8 samples.

Results

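The genes described here encode the machinery that licenses DNA for replication in newborn pig olfactory epithelium: ORC1, CDC6, CDT1, the helicase subunits MCM2, MCM3, MCM4, MCM5, MCM6 and MCM7, and the transcription factor E2F1. They were taken by symbol, and all 10 were found among the 25880 pig genes of the count table. mRNA was sequenced from the olfactory epithelium of 4 CFTR-knockout piglets (numbered 6, 18, 20 and 21) and 4 wild-type piglets (numbered 5, 9, 12 and 23), all newborn, to examine what underlies the loss of smell in cystic fibrosis. The knockout piglets lack a functional CFTR gene, which encodes the chloride and bicarbonate channel defective in that disease. The labels describe the knockout as CFTR-null without naming the allele, and they give no litter, sex, strain or sequencing batch. Each library is 1 piglet, so the spread is that between animals.

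In G1 of the cell cycle, the origin recognition complex, with ORC1 as an ATPase subunit, binds DNA and recruits CDC6. Together with CDT1 it loads the ring of MCM2 to MCM7 around the DNA, where the ring waits to become the replicative helicase in S phase. E2F1 belongs to the family of transcription factors that RB holds in check and that drive most of these genes at the entry into S phase. In the olfactory epithelium the dividing cells are mainly globose basal cells, which replace sensory neurons throughout life, and a resting reserve of horizontal basal cells lies beneath them.

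The genes were chosen by their lower counts in the knockout than in the wild-type libraries described here. Their differences between the genotypes are therefore a description, and nothing is supported with them. The libraries held 39915150 to 43253395 reads in knockout piglets and 30836904 to 42281883 in wild-type piglets. CFTR, the disrupted gene, averaged 6.84 ± 1.36 CPM (counts per 1e+06 reads, scaled by the trimmed mean of M values, TMM) in knockout and 40.4 ± 10.9 CPM in wild-type piglets (SD, n = 4 each), an edgeR log2 fold change of -2.56 ± 0.21 (SE) and a Benjamini-Hochberg adjusted p of 0.0121. Of 12 markers of mature olfactory neurons, 11 were matched and none was at 0. Their summed level was 6197 to 7246 CPM in knockout and 3905 to 6035 CPM in wild-type libraries, so the labelled tissue carried its defining transcripts.

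The members spanned a wide range of levels when reads were divided by exon length, given here as RPKM, the CPM per kilobase of exon. In knockout piglets MCM7 stood highest at 14.0 ± 0.881 RPKM and MCM6 next at 12.3 ± 0.594, while in wild-type piglets MCM6 was highest at 17.3 ± 3.28 and MCM5 and MCM7 followed at 14.8 ± 3.51 and 14.4 ± 0.650 (SD, n = 4 each). These last 3 did not differ beyond their spread in wild-type piglets, and the order of MCM6 and MCM7 there turns with the exon length used for MCM7, given in the next paragraph. E2F1 (5.90 ± 0.509 in knockout and 8.82 ± 1.35 RPKM in wild-type), MCM2 (5.02 ± 0.723 and 8.24 ± 1.65), MCM4 (4.51 ± 0.292 and 7.05 ± 2.08) and MCM3 (3.92 ± 0.259 and 7.12 ± 1.89) formed a middle tier whose neighbours overlapped in wild-type piglets. The loading factors were rarer. CDT1 had 1.75 ± 0.253 RPKM in knockout and 2.86 ± 0.880 in wild-type, ORC1 1.22 ± 0.0886 and 1.89 ± 0.237, and CDC6 0.304 ± 0.0394 and 0.542 ± 0.150. Even CDC6 was covered by at least 61 reads in every library.

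The gene models set a limit on these levels. The MCM7 model (chromosome 3, 8001458 to 8014061, minus strand, build not stated) counts 7630 exonic bases, of which 4803 (62.9%) lie in 1 exon that spans COPS6, a gene on the opposite strand. The CDC6 model (chromosome 12, 22097390 to 22116165, minus strand) likewise has 4713 of its 6560 bases in 1 exon. E2F1 (chromosome 17, 37179656 to 37189684, minus strand, 1272 bases) and MCM5 (an unplaced scaffold, 2175 bases) have exon lengths that are multiples of 3. With the shorter listed version of such long exons, MCM7 would count 3189 bases and CDC6 2666, and MCM7 would then stand above MCM6 in every library of both genotypes. The counts themselves showed that reads were assigned by strand. In 111 pairs, a gene above a minimum length lay at least 99% within the exons of an opposite-strand gene. The inner gene had at least 80 reads over the 8 libraries in 60 pairs, and in 25 of these it had more reads than the gene around it. Of 68 such pairs on the same strand, 0 had an inner gene with 80 reads. VMO1, for example, had 81200 reads and TM4SF5, which covers it on the other strand, 342 (0.421%). MCM7 also shares 572 bases with TAF6 on its own strand.

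The members that mark origins and load the helicase were lower in knockout piglets. ORC1 (chromosome 6, 159819297 to 159852307, plus strand) was 3.83, 4.54, 4.13 and 4.04 CPM in knockout piglets 6, 18, 20 and 21, and 6.59, 7.03, 5.22 and 6.75 CPM in wild-type piglets 5, 9, 12 and 23. The groups did not overlap, and the log2 fold change was -0.63 ± 0.16 (SE). CDC6, the ATPase that recruits the helicase, was 2.05, 1.70, 1.91 and 2.32 CPM in the knockout and 3.58, 4.18, 2.15 and 4.30 CPM in the wild-type piglets, a log2 fold change of -0.83 ± 0.26. Wild-type piglet 12 lay within the knockout range, and the other 3 wild-type piglets lay above it. CDT1 (chromosome 6, 893381 to 897627, minus strand), the partner that CDC6 needs for loading, was 4.65, 4.32, 3.58 and 5.09 CPM in the knockout and 6.59, 10.4, 5.42 and 6.31 CPM in the wild-type piglets. Its groups did not overlap, the log2 fold change was -0.70 ± 0.23, and wild-type piglet 9 was the highest of all.

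Within the helicase ring, MCM3 had the largest difference. MCM3 (chromosome 7, 46084662 to 46104430, minus strand) was 15.9, 15.5, 14.5 and 13.7 CPM in knockout piglets 6, 18, 20 and 21, and 28.2, 35.3, 17.9 and 26.7 CPM in wild-type piglets 5, 9, 12 and 23. All 4 knockout values lay below the lowest wild-type value, that of piglet 12, with a log2 fold change of -0.86 ± 0.18 (SE). MCM2 (chromosome 13, 72629882 to 72650725, minus strand) was 27.4, 24.3, 22.0 and 19.5 CPM in the knockout and 39.4, 46.2, 27.8 and 39.7 CPM in the wild-type piglets, again without overlap (-0.72 ± 0.16), although knockout piglet 6 and wild-type piglet 12 nearly met. MCM4 (chromosome 4, 79672783 to 79687307, minus strand) was 28.0, 27.0, 24.6 and 24.7 CPM in the knockout and 39.8, 53.9, 25.0 and 44.4 CPM in the wild-type piglets (-0.64 ± 0.20). Here wild-type piglet 12 sat inside the knockout range, with the other 3 wild-type values at least 1.42 times the highest knockout value.

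MCM5, which forms the gate of the ring with MCM2, and MCM6, which sits on the other side of MCM2, had the same arrangement of libraries. MCM5 was 21.6, 22.9, 17.2 and 21.7 CPM in the knockout and 33.2, 41.2, 22.6 and 32.0 CPM in the wild-type piglets (-0.63 ± 0.18). MCM6 (chromosome 15, 15917042 to 15979389, plus strand) was 49.6, 51.3, 51.4 and 46.3 CPM in the knockout and 74.8, 80.6, 50.5 and 73.4 CPM in the wild-type piglets (-0.49 ± 0.14). In both, wild-type piglet 12 alone of its group lay among the knockout values. PRKDC, the DNA repair kinase next to MCM4 on the opposite strand, whose exons overlap those of MCM4 by 657 bases, had a log2 fold change of -0.19 ± 0.11.

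MCM7, a subunit of the same ring, was nearly level. It was 114, 111, 101 and 101 CPM in knockout piglets 6, 18, 20 and 21, and 117, 110, 107 and 106 CPM in wild-type piglets 5, 9, 12 and 23, so the groups overlapped in part. Knockout piglets 20 and 21 lay below all wild-type piglets, and wild-type piglet 5 lay above all knockout piglets. The log2 fold change was -0.04 ± 0.07 (SE), and the coefficient of variation in wild-type piglets was 4.501%, against 19.0 to 29.6% for MCM2 to MCM6. The ratio of MCM7 to the summed CPM of the other 5 subunits was 0.7996, 0.789, 0.780 and 0.803 in the knockout piglets and 0.544, 0.429, 0.743 and 0.492 in the wild-type piglets. The 4 knockout ratios lay within a narrow band above all wild-type ratios, with wild-type piglet 12 nearest to them. The divisor, MCM2 to MCM6, is among the genes chosen by their lower counts in the knockout. The ratio therefore restates that choice in part, and so do the shares that follow. As a share of the reads per base summed over the 6 subunits, MCM7 took 28.4 ± 0.223% in knockout and 21.5 ± 3.97% in wild-type piglets, MCM3 took 7.95 ± 0.188% and 10.2 ± 0.937%, and MCM6 took 24.9 ± 1.58% and 25.0 ± 0.947% (SD, n = 4 each). With the shorter version of the long exons the MCM7 share was 44.2 ± 0.403% in knockout and 35.5 ± 5.18% in wild-type piglets. How many MCM7 reads fell in the exon that spans COPS6 cannot be read from counts per gene.

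E2F1, the regulator among the members, was 8.47, 7.25, 7.16 and 7.14 CPM in knockout piglets 6, 18, 20 and 21, and 11.97, 13.2, 9.43 and 10.2 CPM in wild-type piglets 5, 9, 12 and 23. The groups did not overlap, and the log2 fold change was -0.58 ± 0.15 (SE). Knockout piglet 6 stood somewhat above the other 3 knockout piglets, which were nearly equal.

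**Figure D1:**
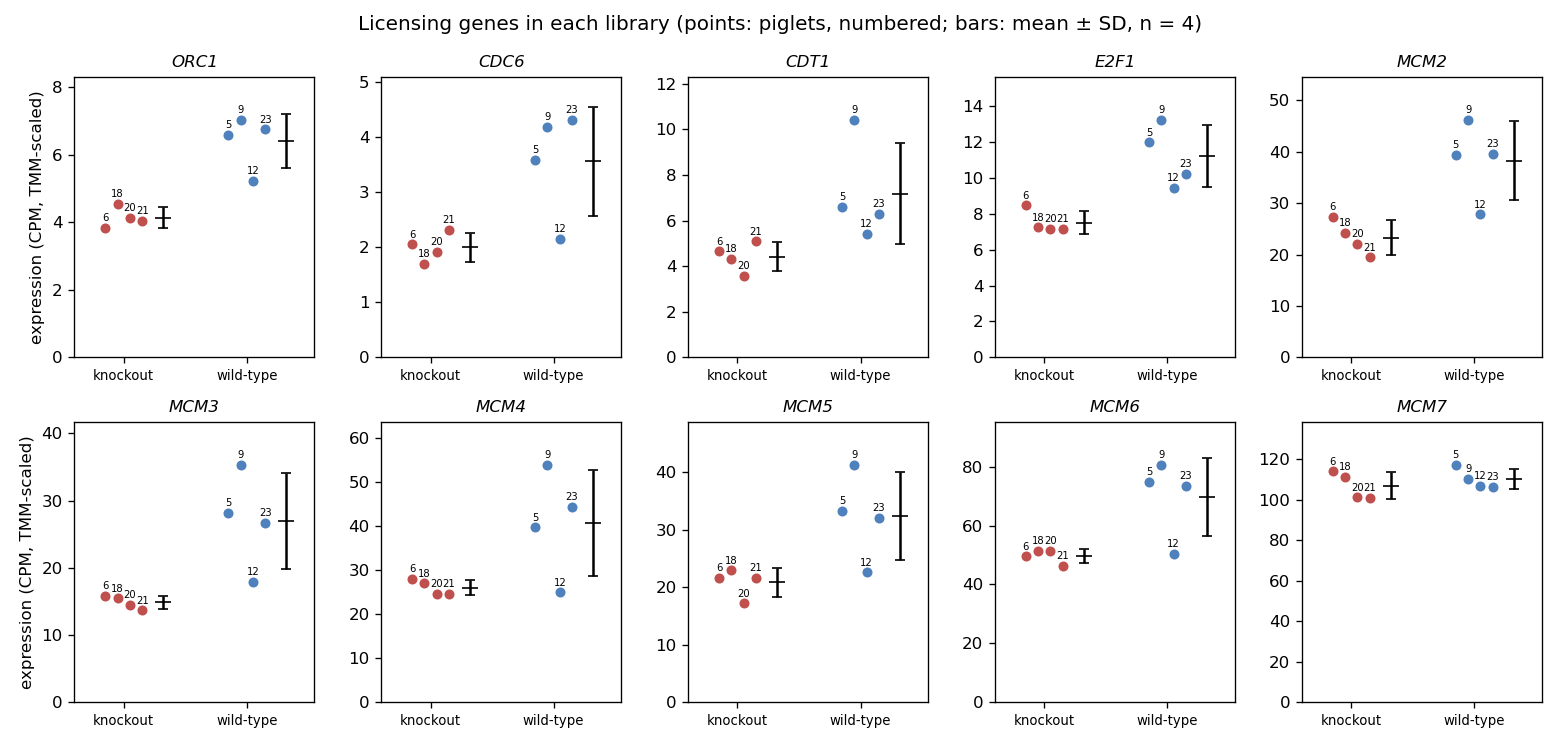
Expression of the 10 licensing genes in each library, in CPM scaled by TMM, on linear axes that start at 0; each point is 1 piglet with its number, knockout on the left, and the bars give the mean and SD of 4 piglets. MCM7 is level at about 101 to 117 CPM, while wild-type piglets 5, 9 and 23 lie above all knockout piglets in the other 9 genes and wild-type piglet 12 lies near or among them.

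Taking the 10 genes together, all had a negative log2 fold change (median -0.64), where 48.4% of all 17175 genes tested were negative and their median was 0.01. All 4 knockout libraries lay below all wild-type libraries in 5 of the 10 (MCM2, MCM3, CDT1, ORC1 and E2F1), against 3.36% of all genes. By edgeR's quasi-likelihood test with Benjamini-Hochberg adjustment over all genes, 0 of the 10 passed 0.05, with a smallest adjusted p of 0.326, where 0.00582% of all genes passed; at an unadjusted p under 0.05, 9 of the 10 were lower, against 5.80% of all genes. DESeq2 called 4 of the 10 lower, namely MCM2, MCM3, ORC1 and E2F1, against 0.792% of all genes, and limma with sample quality weights called none. All of these counts describe the contrast from which the genes were chosen. In whole tissue, fewer dividing cells and less RNA per dividing cell cannot be told apart.

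The wild-type piglets varied more than the knockout piglets in 9 of the 10 genes, the exception being MCM7, with coefficients of variation of 4.84 to 14.4% in knockout and 4.501 to 30.8% in wild-type piglets. Wild-type piglet 12 had the lowest wild-type value in 9 of the 10 genes and lay within the knockout range in 5 (MCM4, MCM5, MCM6, MCM7 and CDC6). It had 53.5 to 79.9% of the mean of the other 3 wild-type piglets in the 9 genes apart from MCM7, and 95.9% in MCM7. Wild-type piglet 9 had the highest wild-type value in 8 of the 10, and its library was the shallowest at 30836904 reads. Without piglet 12 the median log2 fold change of the 10 genes was -0.80. In that setting edgeR called MCM3 and MCM6 lower, with a smallest adjusted p of 0.0489, among 16 genes called over all genes tested. Piglet 12 had the lowest wild-type value in most members, so leaving it out widens the contrast from which the genes were chosen. Without piglet 9 the median was -0.49 and none was called.

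Piglets 9 and 12 were also the libraries in which EIF1AY and KDM5D, both Y-linked, were counted, at 1388 and 1640 reads, while the knockout libraries and wild-type piglets 5 and 23 had 0. By these reads piglets 9 and 12 were male and the others female, so the sexes were not balanced between the genotypes. The part of sex in the licensing values was not tested. The comparison of all knockout piglets with wild-type piglets 5 and 23 alone gave log2 fold changes between -0.99 for CDC6 and -0.07 for MCM7, with a median of -0.67 and no member called by edgeR.

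Over all 8 libraries the members varied together from animal to animal within a genotype, MCM7 less closely than the others. After the mean of each genotype was subtracted from log2 CPM, Pearson r over the 8 libraries was 0.79 to 0.97 in the 10 pairs among MCM2 to MCM6 (median 0.91). In the 9 pairs of MCM7 with the other members it was -0.01 to 0.61 (median 0.33), and over all 45 pairs the median was 0.76. These libraries share their preparation and scaling, and the values changed without 2 of them. Without wild-type piglets 9 and 12, r over the remaining 6 libraries was -0.30 to 0.92 among MCM2 to MCM6 (median 0.49) and -0.59 to 0.93 in the pairs of MCM7 (median 0.39), and the median over all pairs was 0.19. The gap between MCM7 and the other subunits over 8 libraries thus rested largely on these 2 piglets.

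**Figure D2:**
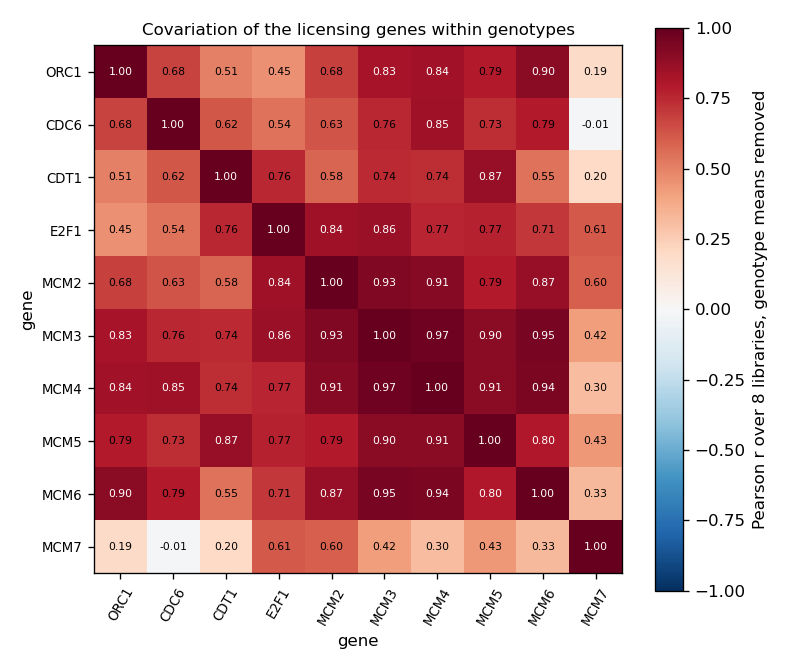
Pearson r between each pair of licensing genes over 8 libraries, computed on log2 CPM after subtracting the mean of each genotype. MCM2 to MCM6 form a block with r of 0.79 to 0.97, and the MCM7 row and column range from -0.01 to 0.61; without wild-type piglets 9 and 12 the median is 0.49 in the block and 0.39 for MCM7, so little of that contrast is left.

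By the same measure, the genes outside the members that followed their mean standardised level most closely were ATIC, an enzyme of purine synthesis (r = 0.997), EIF4E, the cap-binding translation factor (0.98), the mitochondrial fusion protein MFN1 (0.98), NUDCD1 (0.98), the zinc finger gene ZNF566 (0.98) and the splicing factor SMNDC1 (0.97), chosen among 10680 genes with at least 5 CPM on average. These r values are the largest among those 10680 genes over 8 libraries, and they were not recomputed without wild-type piglets 9 and 12. ATIC was 35.3, 33.8, 30.3 and 30.8 CPM in knockout piglets 6, 18, 20 and 21, and 36.7, 40.5, 26.9 and 34.3 CPM in wild-type piglets 5, 9, 12 and 23. Its wild-type piglets thus stood in the order they had for MCM3, yet its genotypes overlapped, with a log2 fold change of -0.09 ± 0.13 (SE). EIF4E had -0.33 ± 0.10, and the other 4 had values between -0.08 and -0.04, of which NUDCD1 and ZNF566 changed sign without wild-type piglet 9 (0.013 and 0.0011).

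The remaining subunits of the origin recognition complex and the regulators of licensing were centred near 0. Of 18 genes on that list, 8 were negative, the median log2 fold change was 0.05, and none passed over all genes. At an unadjusted p under 0.05, 2 were lower and 0 higher, against 5.80% of all genes lower. ORC4, an ATPase subunit of the complex, was 78.8 ± 3.22 CPM in knockout and 71.7 ± 3.59 CPM in wild-type piglets (SD, n = 4 each), with no overlap (0.14 ± 0.07 SE). The other remaining subunits had 0.10 ± 0.07 (ORC2, also without overlap), 0.05 ± 0.08 (ORC3), -0.04 ± 0.11 (ORC5) and -0.35 ± 0.21 (ORC6). All knockout libraries lay above all wild-type libraries in 2 of the 18 genes, where this held for 421 of all 17175 genes tested. GMNN, geminin, which inhibits CDT1, had 0.11 ± 0.11. Of those named by rank, DTL and SKP2, of the ubiquitin machinery that degrades CDT1, were negative. DTL, the receptor that marks CDT1 in S phase, had -0.67 ± 0.25 (2.78 ± 0.286 CPM in knockout and 4.42 ± 1.27 CPM in wild-type piglets). SKP2, an F-box protein, had -0.29 ± 0.10 (26.6 ± 2.04 and 32.6 ± 3.65 CPM). GMNC, at -0.40 ± 0.26, and ORC6 were more negative than SKP2. DDB1, which links DTL to its ligase, had 0.20 ± 0.09, and CUL4A and CUL4B, of that ligase, had 0.07 ± 0.08 and 0.05 ± 0.08. GMNN, GMNC, CUL4A, CUL4B, ORC2, ORC3, ORC5 and ORC6 were named after their values were seen.

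MCM genes outside the ring were split. MCM10, which is needed to start the loaded helicase, was 6.36, 5.88, 5.97 and 5.20 CPM in knockout piglets 6, 18, 20 and 21, and 9.19, 9.72, 8.17 and 7.80 CPM in wild-type piglets 5, 9, 12 and 23, without overlap. Its log2 fold change was -0.57 ± 0.14 (SE), which edgeR did not call (adjusted p = 0.334) and DESeq2 did (0.0113). MCM8 and MCM9, which act together in recombination repair, had -0.07 ± 0.12 and 0.14 ± 0.23, and MCMDC2, a relative with a meiotic role in mouse, named by position, had -0.38 ± 0.37.

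Genes that fire licensed origins were mostly negative, in 14 of 16 with a median log2 fold change of -0.17. None passed over all genes by edgeR. At an unadjusted p under 0.05, 4 were lower and 0 higher, against 5.80% of all genes lower. RECQL4, a helicase that helps to assemble the active complex, was 7.999 ± 0.704 CPM in knockout and 11.3 ± 1.003 CPM in wild-type piglets (SD, n = 4 each; -0.50 ± 0.13 SE). The GINS subunits, which bind the ring to activate it, had -0.40 ± 0.11 for GINS1 (11.4 ± 0.523 and 15.1 ± 1.43 CPM) and -0.57 ± 0.16 for GINS2, named by position. CDC45, the third part of the active helicase, had -0.24 ± 0.09 (19.0 ± 0.425 and 22.4 ± 1.87 CPM). These 4 had the smallest edgeR p of the 16. In all 4, and in no other gene of the list, the knockout libraries lay below the wild-type libraries, against 3.36% of all genes. DESeq2 called 2 of the 16 lower, RECQL4 (adjusted p = 0.0141) and GINS1 (0.0341), against 0.792% of all genes.

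The replication fork list was negative in 21 of its 25 genes (median -0.17). The list of nucleotide supply and S phase genes was negative in 14 of 16 with a median of -0.29. None of either list passed over all genes by edgeR. At an unadjusted p under 0.05, 5 and 9 were lower and 0 higher, against 5.80% of all genes lower. UHRF1, which carries DNA methylation through replication, was 26.8, 24.0, 23.3 and 24.1 CPM in knockout piglets 6, 18, 20 and 21, and 39.7, 41.0, 28.7 and 36.0 CPM in wild-type piglets 5, 9, 12 and 23. Its groups did not overlap (-0.57 ± 0.12 SE, DESeq2 adjusted p = 0.00873). NASP, a histone chaperone, was 100 ± 4.55 CPM in knockout and 131 ± 14.6 CPM in wild-type piglets (SD, n = 4 each; -0.39 ± 0.09, DESeq2 adjusted p = 0.0200). RRM2, the ribonucleotide reductase subunit named by position, had -0.48 ± 0.17, and the maintenance methyltransferase DNMT1 had -0.28 ± 0.09. At the fork, POLE and POLD1, the catalytic subunits of the leading and lagging strand polymerases, had -0.41 ± 0.13 and -0.28 ± 0.10, the histone loader CHAF1B -0.39 ± 0.16 and the DNA ligase LIG1 -0.24 ± 0.10.

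The list of E2F, RB and G1 control genes was evenly split, negative in 13 of 25 with a median of -0.01, and none passed over all genes. At an unadjusted p under 0.05, 2 were lower and 1 higher, against 5.80% of all genes lower and 928 of 17175 higher. CCND2, a G1 cyclin, was 19.8, 19.1, 18.4 and 20.4 CPM in knockout piglets 6, 18, 20 and 21, and 33.7, 33.1, 16.0 and 51.5 CPM in wild-type piglets 5, 9, 12 and 23 (-0.79 ± 0.28 SE). Wild-type piglet 12 was the lowest of all libraries here, below the knockout piglets. CDKN1B, the cyclin-dependent kinase inhibitor p27, was 133 ± 7.98 CPM in knockout and 111 ± 11.8 CPM in wild-type piglets (SD, n = 4 each), with every knockout library above every wild-type library (0.27 ± 0.09). E2F4, a repressive family member, had -0.18 ± 0.07 and TFDP1, the partner of E2F1, -0.21 ± 0.09.

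Genes of G2 and mitosis lay closer to 0 than the licensing genes, but they were negative in 22 of 26 with a median of -0.11. None passed over all genes and 0 had an unadjusted p under 0.05 in edgeR, nor did DESeq2 call any. CDK1, the mitotic kinase, was 10.4 ± 0.643 CPM in knockout and 12.9 ± 2.47 CPM in wild-type piglets (SD, n = 4 each; -0.31 ± 0.15 SE), NUF2 and NDC80, of the kinetochore, had -0.30 ± 0.16 and -0.20 ± 0.11, and MYBL2, a transcription factor of late cell cycle genes, had -0.22 ± 0.12. Mean log2 CPM of the licensing genes minus that of the G2 and mitosis list was 0.00, -0.22, -0.14 and -0.01 in knockout piglets 6, 18, 20 and 21, and 0.15, 0.79, 0.11 and 0.57 in wild-type piglets 5, 9, 12 and 23. The difference between the lists was lower in every knockout piglet than in any wild-type piglet. Wild-type piglet 5, which had the highest G2 and mitosis level, stood near piglet 12. The licensing genes were chosen by their lower counts in the knockout, so this difference restates that choice in part. Over the 130 genes of these 7 lists, 95 were negative, against 48.4% of all genes, and the median was -0.13. DESeq2 called 5 lower (MCM10, RECQL4, GINS1, UHRF1 and NASP), against 0.792% of all genes. It called 0 higher, where 88 of all 17175 genes tested were.

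**Figure D3:**
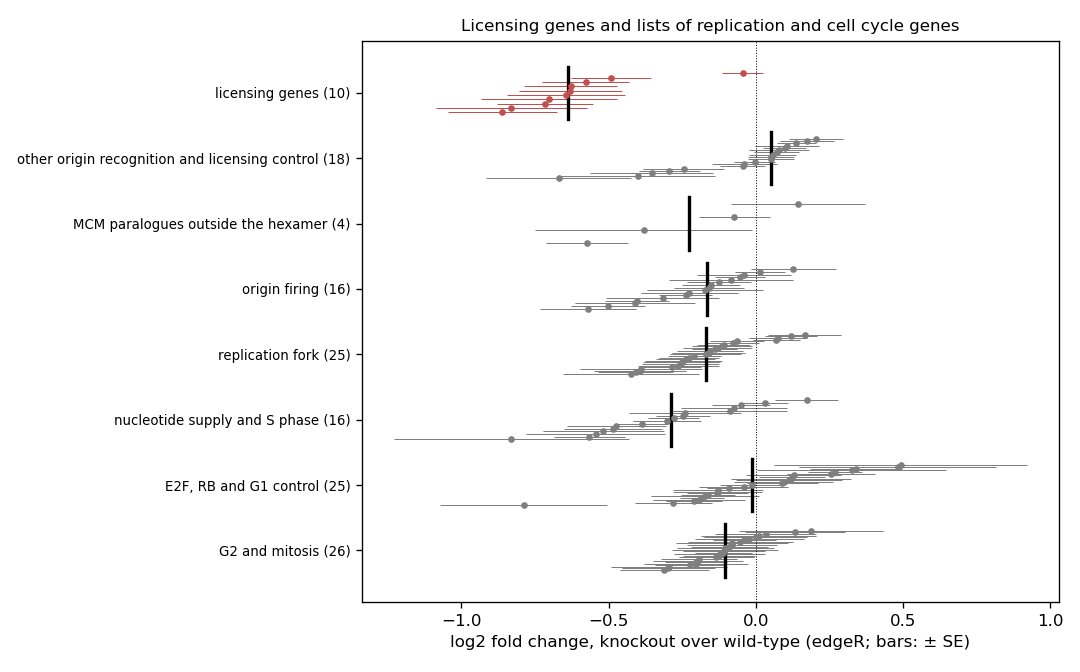
The edgeR log2 fold change of knockout over wild-type for each licensing gene (top row) and each gene of 7 lists of replication and cell cycle genes, with the standard error as a bar and the list median as a vertical line; the number of genes tested follows each list name. Medians run from -0.64 for the licensing genes to 0.05 for the list of other origin and licensing control genes, and the licensing gene set apart near 0 is MCM7.

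**Figure D4:**
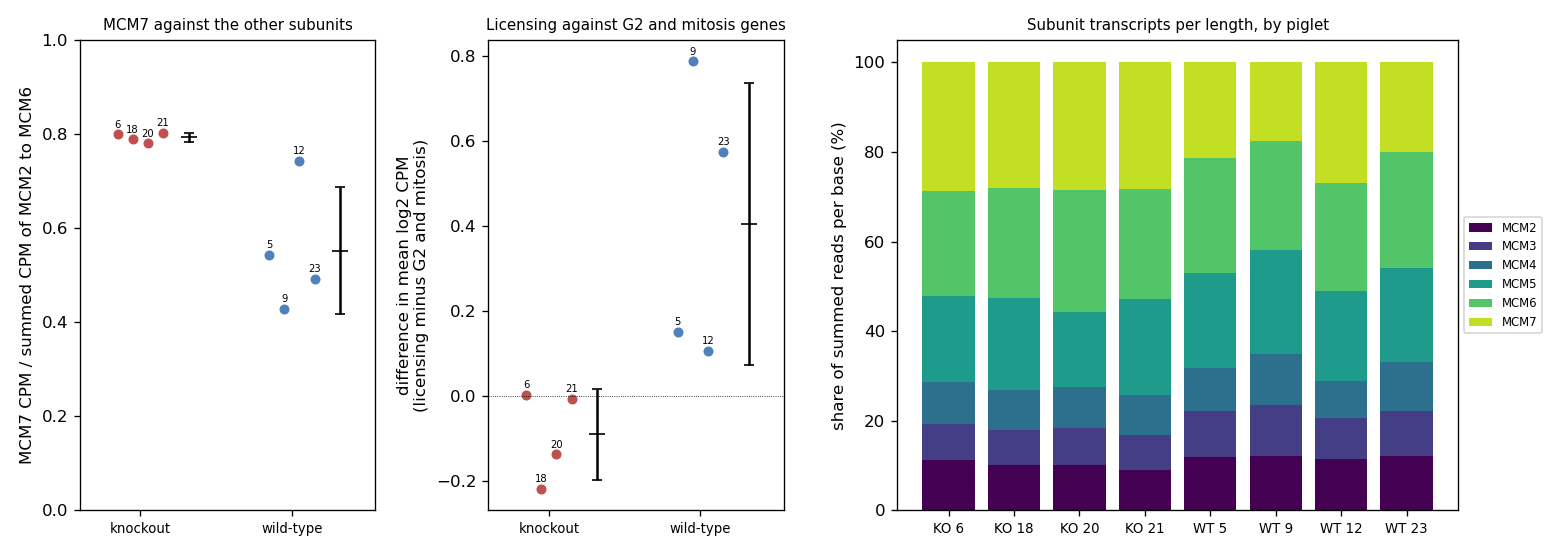
The balance of licensing transcripts by piglet: the ratio of MCM7 to the summed CPM of MCM2 to MCM6 (left), the difference in mean log2 CPM between the licensing genes and the G2 and mitosis list (middle), and the share of each subunit in reads per base summed over the 6 subunits (right); numbered points are piglets and bars are mean and SD of 4. Knockout ratios lie at 0.780 to 0.803, above the wild-type range of 0.429 to 0.743. The licensing genes were chosen by their lower counts in the knockout, so these panels restate that choice in part.

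Markers of the cells that could hold these transcripts were set beside them. Globose basal cell and neuronal precursor markers (11 of 13 matched, none at 0) summed to 853 to 1037 CPM in knockout and 848 to 984 CPM in wild-type libraries. Of these 11, 7 were negative, the median log2 fold change was -0.08 and none was called by edgeR. At an unadjusted p under 0.05, 1 was lower, against 5.80% of all genes, and DESeq2 called 1 lower, against 0.792%. Horizontal basal cell markers (8 of 10 matched) summed to 302 to 412 CPM in knockout and 301 to 470 CPM in wild-type libraries (6 of 8 negative, median -0.11). Markers of mature olfactory neurons were positive in 11 of 11 tested (median 0.37), and their summed ranges, given above, did not overlap between the genotypes. Their mean log2 CPM did overlap, as knockout piglet 18 (8.44) lay below wild-type piglet 12 (8.49). At an unadjusted p under 0.05 in edgeR 5 were higher, where 928 of all 17175 genes tested were. Every knockout library lay above every wild-type library in 1 of the 11, where this held for 421 of all 17175 genes tested. Immature neuron markers (10 of 10 matched) summed to 8428 to 9940 CPM in knockout and 7288 to 9809 CPM in wild-type libraries (4 of 10 negative, median 0.10). Markers of olfactory ensheathing and Schwann glia (9 of 10 matched) had the same sign as the licensing genes in 7 of 9, with a median of -0.39. Of these 9 glial markers 2 were lower and 1 was higher at an unadjusted p under 0.05, where 996 and 928 of all 17175 genes tested were. DESeq2 called 1 of the 9 lower, against 0.792% of all genes. The glial sums were 311 to 339 CPM in knockout and 269 to 469 CPM in wild-type libraries. Sustentacular cell markers (7 of 10 matched) were negative in 5 of 7 (median -0.19). At an unadjusted p under 0.05, 2 of the 7 were lower, against 5.80% of all genes. They summed to 2565 to 3813 CPM in knockout and 2829 to 3557 CPM in wild-type libraries. Of other cells that divide or that a dissection brings along, erythroid markers (8 of 10 matched) summed to 80.7 to 301 CPM in knockout and 37.1 to 124 CPM in wild-type libraries, lymphocyte markers (10 of 10) to 10.5 to 20.7 and 9.69 to 11.2 CPM, and bone and connective tissue markers (9 of 10) to 1597 to 45453 and 1989 to 5669 CPM, the highest value being that of knockout piglet 18. Cartilage markers (7 of 7) summed to 204 to 1041 CPM in knockout and 213 to 547 CPM in wild-type libraries, macrophage and neutrophil markers (11 of 11) to 52.9 to 303 and 54.9 to 119 CPM, and endothelial markers (4 of 6) to 160.2 to 243 and 166 to 353 CPM. None of these matched markers was at 0 in all libraries. Of bone and connective tissue markers tested 0 of 9 were negative (median 1.93), and of erythroid markers 0 of 4 (0.79). Lymphocyte markers were negative in 1 of 6 (0.42) and cartilage markers in 1 of 7 (0.18). Macrophage and neutrophil markers were negative in 3 of 9 (0.15) and endothelial markers in 3 of 4 (-0.11). At an unadjusted p under 0.05 in edgeR, 2 of the 4 erythroid markers were higher, where 928 of all 17175 genes tested were. No marker of the other lists in this group passed. Without wild-type piglet 5 and knockout piglet 18 the median of the licensing genes was -0.67. The part of these cell markers in the licensing values was not tested.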

How the data were processed

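Each library is 1 piglet. The deposited values are raw counts, which the authors made with featureCounts per the file headers, and they carry no scaling. Tools listed in the submitters' processing notes, without roles, are STAR 2.4.0, FastQC, Subread 1.5.0-p3, featureCounts, DESeq2 and HTSeq. No source used here gives the genome build. RNA was purified on columns with DNase and made into TruSeq libraries, per the labels. Counts per library came to 30836904 to 43253395 over 25880 pig genes, and 5988 other identifiers were left out. Symbols came from a table of gene names, and 14 listed symbols were assigned by position (overlap of at least 50% of both spans) through RefSeq's Sscrofa11.1 table; 245 of 263 listed symbols were matched.

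The main test was the edgeR quasi-likelihood F test (edgeR 4.0.16, R 4.3.3, TMM, default filter on low counts, genotype as factor, Benjamini-Hochberg at 0.05), which kept 17175 genes and all 10 members. The pipeline was tested on simulated data. Each SE is the log2 fold change divided by the root of its F statistic. Log2 CPM used a prior count of 2. Exon overlaps were computed with bedtools 2.31.1. Alternatives were DESeq2 1.42.0, DESeq2 size factors, limma 3.58.1 with voom and sample quality weights, other filters and omitted libraries. Beside the members and CFTR, the text names up to 4 genes with the smallest edgeR p in each of 7 lists, PRKDC, and the 6 genes that vary most like the members. Genes of the list of other origin and licensing control that were named after their values were seen are marked there. The members, lists and tests were chosen with earlier results of these data known.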

Additional observations from a re-analysis of the deposited data

Results flagged for a closer look

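In 6 of 122 groups of 4 libraries examined, 1 library stood apart from the other 3 by Dixon's criterion, where chance gives about 1 in 20. Among the members this was E2F1 in knockout piglet 6, at 8.47 CPM against 7.14 to 7.25 CPM in the other knockout piglets. POLD1 was 13.5 CPM in knockout piglet 18 and 13.3 CPM in the others. CHAF1B was 9.53 CPM in wild-type piglet 9, against 6.84 to 6.97 CPM in the other wild-type piglets. CFTR was 56.6 CPM in wild-type piglet 5, against 34.0 to 36.6 CPM. The mean log2 CPM of the E2F, RB and G1 control list was 4.51 in knockout piglet 18, against 4.39 to 4.40, and that of the G2 and mitosis list was 4.30 in wild-type piglet 5, against 3.86 to 3.91. The low members of wild-type piglet 12 did not meet this criterion.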

How the results depend on the processing

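All 150 log2 fold changes of the members stayed negative over 15 alternatives. Of 554 values of 37 other named genes, 2 changed sign, both without wild-type piglet 9. They were 0.013 for NUDCD1, which ranged from -0.13 to 0.013 with 1 piglet left out, and 0.0011 for ZNF566, from -0.16 to 0.0011. ORC2, ORC3, ORC5, ORC6, GMNC, CUL4A and CUL4B were not among the 37. The median of the 10 members was -0.80 to -0.49 with 1 piglet left out. Of 120 list medians, 118 moved by less than the spread between replicates; the exceptions were the replication fork list without wild-type piglet 12 and without the libraries with Y-linked reads (-0.25 in both), and with 1 piglet left out that list ranged from -0.25 to -0.16. The count of genes called depended on the tool and the libraries, with 224 by DESeq2, 11 by limma, 2 without wild-type piglet 5 and knockout piglet 18, a pair chosen from earlier results of these data, 0 without the libraries with Y-linked reads and 0 to 16 with 1 piglet left out, the 16 without wild-type piglet 12. CFTR itself was not called without knockout piglet 6 (edgeR adjusted p = 0.122) or 20 (0.0544) or without the Y-linked libraries (0.0668). With the shortest version of the longest exon, chosen after seeing the data, the mean share per length was 7.45% for MCM2, 6.14% for MCM3, 6.48% for MCM4, 13.8% for MCM5, 26.3% for MCM6 and 39.9% for MCM7. Protein lengths were not used. No paired analysis was possible because the genotypes share no piglet number. CDC6, with as few as 61 reads per library, is the member most limited by depth.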
